A study of Homo sapiens with 19 samples.

Results

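The 904 regions described here are OCT-2 peaks of 231Pa_Luc+OCT-2 cells that lie inside superenhancers of the same cells. A peak was taken when at least 1 bp of it overlapped a superenhancer, on chromosomes 1 to 22 and X of the human build hg38. These 904 peaks are 15.8% of the 5736 OCT-2 peaks on those chromosomes (exact Clopper-Pearson 95% interval 14.8% to 16.7%), and the other 4832 lie outside. The members were chosen by position alone, from their overlap with the superenhancer list, so the number of members and their overlap with superenhancers describe the choice and carry no test.

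The series holds 19 ChIP-seq and input libraries of human triple-negative breast cancer lines. The 231Pa_Luc+OCT-2 cells are MDA-MB-231 cells that carry luciferase and POU2F2 transgenes, POU2F2 being the gene of OCT-2, and they were precipitated with an OCT-2 antibody in 2 libraries and with an H3K27ac antibody in 2 libraries. The comparison cells, 231Pa_Luc+GFP, are MDA-MB-231 cells with luciferase and GFP transgenes, precipitated for H3K27ac in 2 libraries. Both populations are polyclonal with stable transgene expression, and both carry luciferase. None of the 19 libraries is an OCT-2 library of 231Pa_Luc+GFP cells, so binding of forced and of endogenous OCT-2 cannot be told apart. Each deposited list merges both libraries and gives positions alone, without heights, read counts or a value per library. Depth is therefore unknown, no result below has a replicate check or a p-value, and every interval covers counting error only. The 3 lists used give the peaks and the 518 superenhancers of the OCT-2 cells, and the superenhancers of 231Pa_Luc+GFP cells.

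OCT-2 is a POU-domain transcription factor best known from B lymphocytes, where it binds the octamer, an 8-base element of immunoglobulin promoters and enhancers, and works with the coactivator OCA-B. The related and widely expressed OCT-1 binds the same element, which also stands in promoters of histone H2B genes and of small nuclear RNA (snRNA) genes. A superenhancer is a long stretch of closely neighbouring enhancers with high levels of an active mark, here acetylation of histone H3 at lysine 27 (H3K27ac), usually found by joining nearby marked peaks and ranking the joined stretches by signal. Superenhancers often lie near genes that define a cell's identity or drive a tumour. The edge of such a region is thus usually the edge of a marked peak, although how the regions were joined here is a step the available descriptions leave out.

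The sequences that follow are shown because a member peak covers an octamer in each of them. They are the 250 bases before the gene start, 5′ to 3′ on the gene's strand, from RefSeq on GRCh38.p14, with the octamer in capitals. The search was for ATGCAAAT on either strand, which reads ATTTGCAT on the other strand. A match is a run of letters, not a measured binding site.
H2BC3, a histone H2B gene, chr6:26043714-26043963, minus strand: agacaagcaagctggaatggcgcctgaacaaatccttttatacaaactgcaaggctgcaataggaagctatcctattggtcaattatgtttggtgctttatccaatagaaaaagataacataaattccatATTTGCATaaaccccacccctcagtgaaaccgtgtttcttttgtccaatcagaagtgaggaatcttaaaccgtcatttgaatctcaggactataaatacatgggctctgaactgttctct
H2AC4, a histone H2A gene, chr6:26033619-26033868, minus strand: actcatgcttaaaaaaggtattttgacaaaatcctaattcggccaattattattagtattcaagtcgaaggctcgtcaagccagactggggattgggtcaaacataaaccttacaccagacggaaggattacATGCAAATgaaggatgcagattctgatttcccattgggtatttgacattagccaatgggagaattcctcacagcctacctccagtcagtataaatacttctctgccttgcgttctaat
SIRT4, a mitochondrial sirtuin gene, chr12:120291939-120292188, plus strand: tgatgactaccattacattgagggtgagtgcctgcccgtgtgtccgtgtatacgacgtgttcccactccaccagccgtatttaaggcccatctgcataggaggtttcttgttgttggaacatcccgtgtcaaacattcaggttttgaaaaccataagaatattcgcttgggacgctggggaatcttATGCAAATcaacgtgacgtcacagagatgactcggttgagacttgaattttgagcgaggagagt
ACBD4, an acyl-CoA binding domain gene, chr17:45135437-45135686, plus strand: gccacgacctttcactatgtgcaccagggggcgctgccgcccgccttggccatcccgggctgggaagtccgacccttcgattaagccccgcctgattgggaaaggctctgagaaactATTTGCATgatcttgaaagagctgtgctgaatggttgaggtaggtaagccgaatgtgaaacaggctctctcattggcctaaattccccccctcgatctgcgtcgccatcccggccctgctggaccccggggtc
TRMT112, a subunit of several methyltransferases, chr11:64317560-64317809, minus strand: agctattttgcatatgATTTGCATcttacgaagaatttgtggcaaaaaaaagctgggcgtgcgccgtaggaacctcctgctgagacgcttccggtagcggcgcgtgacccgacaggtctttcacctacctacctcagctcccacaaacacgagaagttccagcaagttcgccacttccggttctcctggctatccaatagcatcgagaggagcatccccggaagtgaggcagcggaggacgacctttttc
MIR3142HG, a host gene of microRNAs, chr5:160468001-160468250, plus strand: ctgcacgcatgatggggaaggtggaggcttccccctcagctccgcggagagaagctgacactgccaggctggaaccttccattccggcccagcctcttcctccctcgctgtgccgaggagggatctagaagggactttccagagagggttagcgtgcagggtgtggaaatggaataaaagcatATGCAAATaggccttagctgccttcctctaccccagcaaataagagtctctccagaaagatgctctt
PRRC2A, a proline-rich RNA-associated protein, chr6:31620465-31620714, plus strand: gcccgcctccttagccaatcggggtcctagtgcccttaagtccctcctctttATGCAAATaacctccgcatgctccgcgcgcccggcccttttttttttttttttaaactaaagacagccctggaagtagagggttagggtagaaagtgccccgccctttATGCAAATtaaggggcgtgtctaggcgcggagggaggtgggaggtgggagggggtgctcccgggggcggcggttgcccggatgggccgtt
TOP1, DNA topoisomerase I, chr20:41028572-41028821, plus strand: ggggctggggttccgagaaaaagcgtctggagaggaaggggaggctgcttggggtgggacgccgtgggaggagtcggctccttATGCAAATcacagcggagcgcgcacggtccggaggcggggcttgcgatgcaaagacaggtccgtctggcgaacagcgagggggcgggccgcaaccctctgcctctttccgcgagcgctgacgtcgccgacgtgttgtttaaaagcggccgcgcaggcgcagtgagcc

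In these promoters the octamer stood close to the middle of the peak in 5 genes. Its centre lay 2 bp from the peak centre at SIRT4, 3 bp at ACBD4, 4 bp at H2BC3, 4 bp at TRMT112 and 14 bp at MIR3142HG. It lay 40 bp from the peak centre at H2AC4 and 67 bp at TOP1. PRRC2A held 2 octamers under 1 peak, 198 bp and 90 bp before the gene start, at 86 bp and 22 bp from the peak centre. The SIRT4 peak, chr12:120291999-120292254, lay 95 bp from RNU4-2, a gene for the U4 snRNA of the spliceosome, and the first base of its octamer was 222 bp from the nearer end of RNU4-2. A further member, chr12:120293133-120293513, overlapped RNU4-1, the other U4 gene of this stretch. The octamer printed for SIRT4 thus lies next to an snRNA gene as well as before SIRT4, and which of the genes the peak belongs to was not tested.

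Across all members, 62 peaks overlapped a RefSeq promoter window of 300 bases (250 before to 50 after the gene start), and together they covered 73 windows of 69 gene symbols, 50 of them protein-coding. These 73 windows are 0.209% of the 34961 windows searched, in which chromosome 8 was not used here. The octamer was present in 13 of the 73 windows, or 17.8% (9.84% to 28.5%), against 1.77% of all 34961 windows. Windows under OCT-2 peaks outside superenhancers had it in 65 of 423, or 15.4% (12.1% to 19.2%), so the shares of both kinds of peak lie within each other's intervals. Promoter windows inside superenhancers without a member peak on them had the octamer in 26 of 1561, or 1.67% (1.09% to 2.43%). Of 13 distinct octamers in windows under members, 11 lay wholly inside the peak, and 8 of those 11 were within 40 bp of its centre (median 22 bp, range 2 to 180 bp). Of the other octamers, that of the AJUBA window was cut by the end of its peak, 149 bp from the peak centre, and that of the LOC105375061 window lay outside its peak, 189 bp from the centre. PRDX5, a peroxiredoxin gene that starts head to head with TRMT112, shared the TRMT112 peak and had a second octamer under it, 180 bp from its centre.

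Most promoters under a member had no perfect octamer in the window. Among protein-coding genes in order of the number of peaks in their superenhancer, with ties in genome order, the first 10 with a member on their promoter were IFIT3, an interferon-induced protein; H4C2, H3C2, H2AC4 and H2BC3, all histone genes; MED20, a Mediator subunit; BYSL, a ribosome biogenesis factor; DST, the hemidesmosome linker dystonin; and BIRC3 and BIRC2, ubiquitin ligases that inhibit cell death. H2AC4 and H2BC3 alone of these 10 had the octamer. The absence of these letters in a window of 300 bases says nothing about other sequences that OCT-2 may bind.

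The 518 superenhancers covered 50.4 Mb, in which the members stood at 17.9 peaks per Mb, a mean of 1.75 per superenhancer. A peak was present in 406 of 518 superenhancers, 78.4% (74.6% to 81.8%), and absent from 112, 21.6% (18.2% to 25.4%). The number of peaks was 1 in 161 superenhancers, 2 in 117, 3 in 61, 4 in 33, 5 in 21, 6 in 7, 7 in 4, 8 in 1 and 11 in 1. The 128 superenhancers with 3 or more peaks, 24.7% of all and 34.2% of their summed length, held 509 members, or 56.3%. The 34 superenhancers with 5 or more, 6.56% of all (4.59% to 9.05%) and 11% of the length, held 194 members, or 21.5%. These shares follow from grouping regions by their number of peaks and are not set against a chance scatter. Of these 34, 32 overlapped a superenhancer of 231Pa_Luc+GFP cells, against 314 of all 518, and of the 130 in the widest quartile all but 29 did so. The 34 had a median width of 155 kb, and the part of width in their overlap was not tested.

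**Figure D1:**
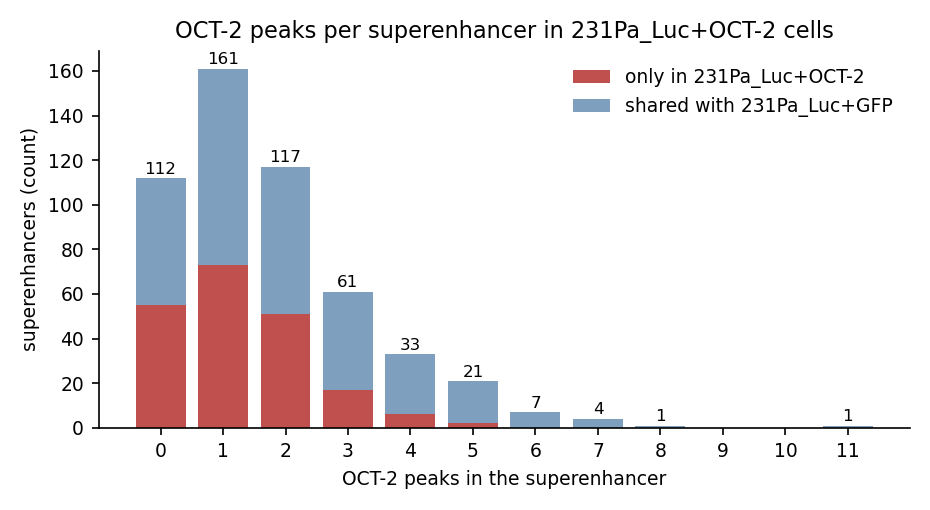
Number of superenhancers of 231Pa_Luc+OCT-2 cells (y axis, count) by the number of OCT-2 peaks they hold (x axis). Red marks superenhancers found only in 231Pa_Luc+OCT-2 cells and blue those that overlap one of 231Pa_Luc+GFP cells; 161 superenhancers held 1 peak, and 32 of the 34 with 5 or more are blue.

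Wider superenhancers held more peaks but fewer per length. Median width was 66.8 kb with no peak, 76.1 kb with 1, 86.0 kb with 2, 112.5 kb with 3, 113.7 kb with 4, 153.8 kb with 5, 148 kb with 6 (7 superenhancers) and 139 kb with 7 (4 superenhancers), and Spearman's rho between width and number of peaks was 0.42 over the 518 superenhancers, which share 1 peak list. In the narrowest quartile (5.68 to 58.9 kb) 64.6% held a peak, and in the 2 middle quartiles and the widest quartile (122.8 to 471.1 kb) the shares were 73.6%, 79.8% and 95.4%. Density ran the other way, from 24.6 members per Mb in the narrowest quartile through 19.1 and 18.3 to 15.7 per Mb in the widest. Superenhancers found only in 231Pa_Luc+OCT-2 cells had a peak in 64.0%, 64.7%, 81.6% and 96.6% of cases from the narrowest to the widest quartile. Those shared with 231Pa_Luc+GFP cells had one in 65.5%, 79.5%, 78.8% and 95%, and the intervals of both classes overlapped in every quartile.

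**Figure D2:**
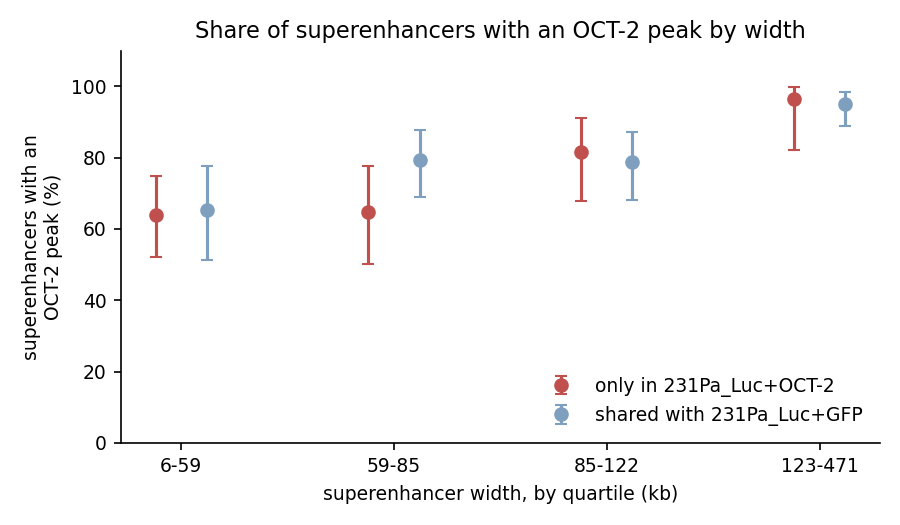
Share of superenhancers with at least 1 OCT-2 peak (y axis, percent) in 4 quartiles of superenhancer width (x axis, kb), for those found only in 231Pa_Luc+OCT-2 cells (red) and those shared with 231Pa_Luc+GFP cells (blue). Bars are exact Clopper-Pearson 95% intervals; the shares were lowest in the narrowest quartile (64.0% and 65.5%) and highest in the widest (96.6% and 95%).

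Members were spread over the whole width of superenhancers. The 10 equal parts of the width, from one end to the other, held between 83 and 106 members each. The central 50% of the width held 441 of 904 members, 48.8% (45.5% to 52.1%), an interval that includes the 50% of an even spread. The outermost 10% of the width at each end held 200 members in all, 22.1% (19.5% to 25%), where an even spread would give 20%. The central share was 45.3% for lone members, 49.5% with 2 to 4 and 49.5% with 5 or more members in the superenhancer. The centre of a member lay a median of 24.5 kb from the nearer edge. In superenhancers found only in 231Pa_Luc+OCT-2 cells 45.0% (38.8% to 51.3%) of members were in the central 50%, and in shared ones 50.3% (46.4% to 54.2%), with overlapping intervals.

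Measured in bases rather than in parts of the width, the outermost 5 kb inside the edge had the highest density. It held 138 peak centres at 26.7 per Mb (exact Poisson 95% interval 22.4 to 31.5). From 5 to 10 kb inside the density was 17.4 per Mb, from 10 to 20 kb 16.7, from 20 to 40 kb 18.6, from 40 to 60 kb 16.4 and from 60 to 100 kb 13.0 per Mb. Bands far inside exist only in wide superenhancers, which had fewer peaks per length, so position and width are mixed in this profile. Centres more than 100 kb inside an edge are left out of it. Immediately outside, few peaks were present: the first 5 kb had 12 centres at 2.32 per Mb, the next 5 kb had 5 at 0.965 and the next 10 kb had 10 at 0.989 per Mb. Together the 20 kb outside the edges had 27 peaks at 1.32 per Mb (0.869 to 1.92), below the 3.55 per Mb (3.26 to 3.86) found between 20 and 200 kb outside. Of these 27 centres, 3 belong to members that cross an edge, all 3 in the first 5 kb. Without them, 9 peaks lay in the first 5 kb and 24 in the 20 kb, at 1.17 per Mb (0.751 to 1.74), still below the density farther out. Where nearby marked peaks are joined into 1 region, the flanks next to its edge hold few such peaks by definition. How regions were joined here is not described. How many accessible regions or H3K27ac peaks lie in these flanks was not analysed here, and the part of either in the low density was not tested.

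**Figure D3:**
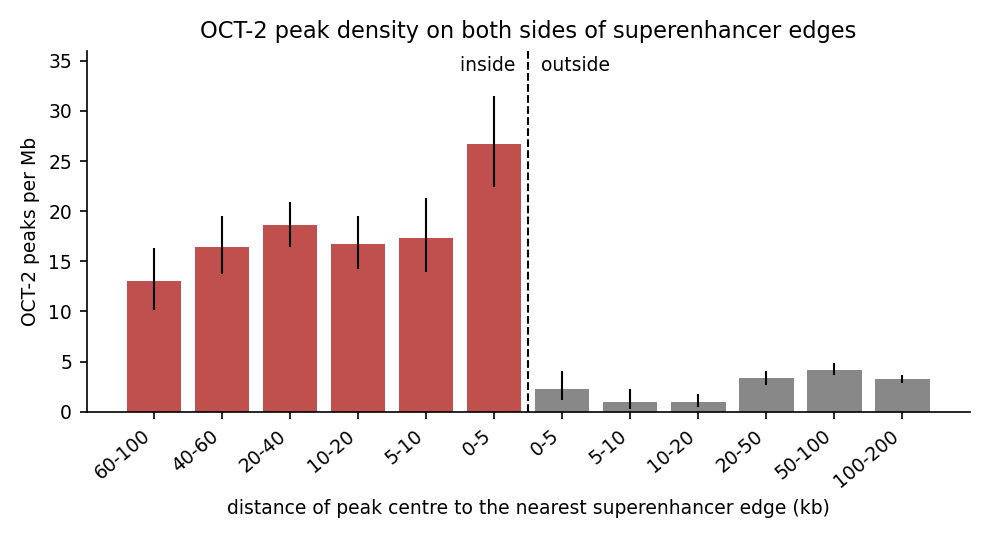
OCT-2 peaks per Mb (y axis) by distance of the peak centre to the nearest superenhancer edge (x axis, kb), inside superenhancers (red, left of the dashed line) and outside (grey, right). Bars are exact Poisson 95% intervals; density was 26.7 per Mb in the outermost 5 kb inside and 2.32 per Mb in the first 5 kb outside, where 3 of the 12 centres belong to members that cross an edge.

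Few peaks lay near the boundary that separates members from other peaks. 5 members crossed an edge, with 42 to 239 bp of the peak inside the superenhancer. The nearest peak outside lay 240 bp from an edge, and 2 of the 4832 other peaks were within 1 kb of a superenhancer, 14 within 10 kb and 120 within 50 kb.

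Neighbouring members of 1 superenhancer were usually several kb apart. Over 498 pairs of neighbours the centres lay a median of 19.7 kb apart, with quartiles of 7.44 and 39.7 kb and a range of 0.589 to 211.6 kb. Pairs closer than 1 kb made up 3.41% (17 of 498; 2.00% to 5.41%), pairs closer than 10 kb 34.1% (30% to 38.5%) and pairs closer than 50 kb 81.7%. Neighbours outside superenhancers (4464 pairs) lay a median of 223 kb apart, with 0.627% closer than 1 kb, 6.27% (5.58% to 7.02%) closer than 10 kb and 20.9% closer than 50 kb. Pairs in 1 superenhancer cannot be farther apart than its width, so the difference at long distances follows from the choice of members. The same limit raises the shares of close pairs inside, so part of the difference at short distances is also set by that choice. Of pairs closer than 50 kb, 407 inside and 931 outside, 170 and 280 were closer than 10 kb. Closer than 1 kb were 17 and 28. By number of peaks in the superenhancer, the median distance was 22.1 kb with 2, 28.2 kb with 3, 16.4 kb with 4 and 12.8 kb with 5 or more. In superenhancers with 2 or more peaks, the outermost peaks spanned a median of 44.8 kb, or 47.3% of the width.

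**Figure D4:**
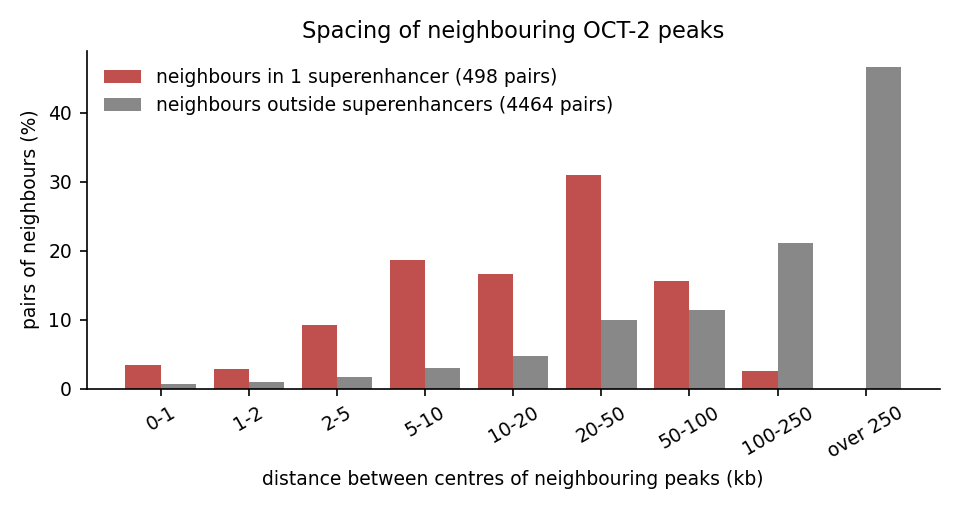
Distance between the centres of neighbouring OCT-2 peaks (x axis, kb) as a share of all pairs (y axis, percent), for 498 pairs inside 1 superenhancer (red) and 4464 pairs outside superenhancers (grey). Pairs inside lay a median of 19.7 kb apart and pairs outside 223 kb, where pairs inside cannot be farther apart than the superenhancer width.

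The closest pair lay in TRERF1, a zinc-finger transcriptional regulator, where chr6:42338394-42338660 and chr6:42338988-42339244 were 589 bp apart between centres. The next closest were 627.5 bp apart at PRRC2A, where the second peak is the one on the promoter shown above, and 652.5 bp apart in MIDEAS, a subunit of a histone deacetylase complex. Other pairs closer than 1 kb included 1 in NRP1, a co-receptor of semaphorins and VEGF, at 736.5 bp. A pair at 790.5 bp had RUNX2, a Runt-domain transcription factor, as its nearest gene and lay in a superenhancer with 4 members. Within any 10 kb, at most 4 members were found, and this was in the superenhancer of PHLDA1. A further 14 superenhancers had 3 members within 10 kb, among them those of RUNX2, CUBN, PRKCH and SH3TC2 and the histone cluster.

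The region with the most peaks was also the widest. It spanned chr1:7953741-8424840 (471.1 kb), was shared with 231Pa_Luc+GFP cells and held 11 members. It overlaps ERRFI1, a feedback inhibitor of the EGF receptor; SLC45A1, a sugar transporter; RERE, a transcriptional corepressor; and PARK7, an oxidative stress protein. The members lay between 94.2 and 389.9 kb from its start, with ERRFI1 the nearest gene of the first 6 and SLC45A1 of the other 5. Its density was 23.3 per Mb, against 17.9 per Mb over all superenhancers.

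The next was BCAS1, a gene often amplified in breast cancer, at chr20:53735151-53950296 (215 kb), with 8 members spread over 87.0% of its width. ADAMTS12, a secreted metalloprotease, had 7 members in chr5:33765459-33860126 (94.7 kb), at 73.9 per Mb. Its first member was 7.1 kb from the start, and the other 6 lay at 43.1, 52.0, 59.7, 69.0, 78.4 and 90.2 kb, so that the steps among these 6 were similar in length. The interferon-induced genes IFIT1, IFIT1B, IFIT2, IFIT3 and IFIT5 share chr10:89251192-89482849 (232 kb) with LIPA, the lysosomal acid lipase, and SLC16A12, a transporter. Of its 7 members, 2 were 873 bp apart at IFIT3, the first of them on the IFIT3 promoter.

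The PHLDA1 locus on chromosome 12, named for a pleckstrin homology-like domain protein, held 2 of these regions. One, chr12:75924004-76039126 (115 kb), overlaps PHLDA1 and NAP1L1, a histone chaperone, and had 7 members at 20.3, 30.2, 54.3, 97.0, 101.6, 103.1 and 104.2 kb from its start. The last 4 are the densest group within 10 kb in any superenhancer. The other, chr12:75704078-75867543 (163 kb), overlaps no protein-coding gene, lies 158 kb from PHLDA1 and also had 7 members. A further superenhancer followed at chr12:76157558-76349237 over BBS10, a chaperonin-like protein, with 5 members, so that 19 members lay in 645 kb.

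The remaining regions among the 12 with most peaks each had 6 members. They were the superenhancers of BTBD9, a BTB-domain protein (58.2 kb, 103 per Mb); of CORO1C, an actin-binding coronin, with SELPLG, a selectin ligand (124 kb); of CUBN, the receptor cubilin (148 kb); of NRP1 (187 kb); and of PRKCH, protein kinase C eta (187 kb). The last was chr1:234924809-235026780 (102 kb), which overlaps no protein-coding gene and is 82.6 kb from TOMM20, a mitochondrial import receptor. All 12 were shared with 231Pa_Luc+GFP cells. EXT1, a heparan sulfate polymerase, was the only other region with 6, and its 333.7 kb gave it 18.0 per Mb.

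**Figure D5:**
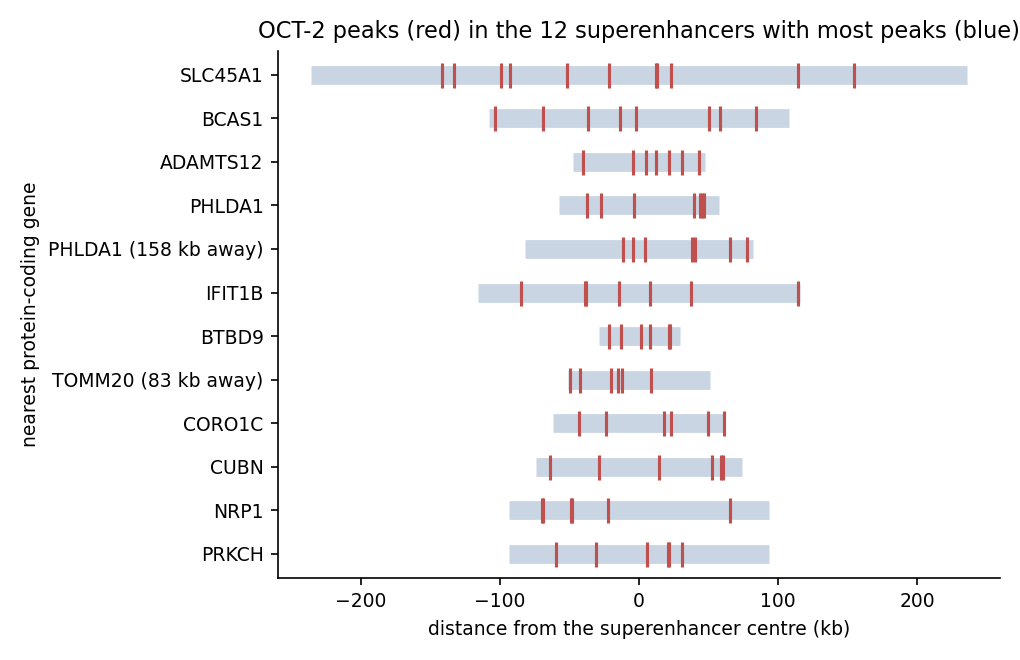
The 12 superenhancers with most OCT-2 peaks, drawn to scale as blue bars centred on their middle (x axis, distance in kb), with member peaks as red ticks and the nearest protein-coding gene at the left. The 471.1 kb region at the top holds 11 peaks, ADAMTS12 holds 7 in 94.7 kb, and the first PHLDA1 region has 4 of its 7 at its right end.

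The densest superenhancer with 3 or more peaks was a histone cluster, chr6:26020206-26057601, with 5 members in 37.4 kb (133.7 per Mb). It overlaps 8 histone genes, H1-2, H2AC4, H2BC3, H3C1, H3C2, H3C3, H4C1 and H4C2, which encode linker and core histones. The 5 members stood at 7.1, 12, 13.5, 23.6 and 34.9 kb from its start, on the promoters of H4C2, H3C2, H2AC4 and H2BC3 in that order, with the fifth 536 bp from H1-2. All 5 were within 1 kb of a gene end, where among all members 75 of 904, or 8.30% (6.58% to 10.3%), lay that close, against 8.84% (8.05% to 9.67%) of peaks outside superenhancers. H2AC4 and H2BC3 carry the octamers printed above. Copies of the histone genes are similar in sequence, and the treatment of reads that match several copies is not described in the labels.

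The other regions among the 10 densest, besides BTBD9, ADAMTS12 and PHLDA1, began with that of MRPS10, a mitochondrial ribosomal protein, and TRERF1 (3 members in 32.9 kb, 91.3 per Mb), found only in 231Pa_Luc+OCT-2 cells. A region 28.2 kb from JUN, a subunit of the AP-1 transcription factor, had 3 members at 74.9 per Mb, and FOXQ1, a forkhead factor, had 5 at 67.0 per Mb. A region 856 kb from TFAP2A, the AP-2 alpha factor, had 4 at 67.0 per Mb, ADGRF1, an adhesion receptor, 4 at 60.5 per Mb, and a region 159 kb from POU5F1B, a retrogene of the POU family, 3 at 59.6 per Mb. POU5F1B shares the POU domain type with OCT-2, and its region was found only in 231Pa_Luc+OCT-2 cells. Densities from 3 to 5 peaks in a short region have wide counting error.

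Among the 34 superenhancers with 5 or more members, the only 2 absent from the 231Pa_Luc+GFP list held CCND3 and YAP1. The region of CCND3, cyclin D3, with BYSL, MED20 and USP49 (chr6:41877640-41977785, 100 kb) had 5 members, 2 of them 779.5 bp apart. The region of YAP1, the transcriptional coactivator of the Hippo pathway, with BIRC2 and BIRC3 (chr11:102219966-102349793, 130 kb) had 5 members, with BIRC3 and BIRC2 promoters under 2 of them. MYC, the oncogenic transcription factor, was the nearest gene of 2 regions with 5 members each, 51.0 kb and 363.8 kb away. Regions with 5 members also covered ACTN4, an actin crosslinker; PXN, the adhesion adaptor paxillin; MICAL2, an actin-oxidising enzyme; DST; CSF1, a macrophage growth factor; and VMP1, an autophagy protein.

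Superenhancers shared with 231Pa_Luc+GFP cells held most members and also made up most of the superenhancer length, 34.5 of 50.4 Mb. The 204 superenhancers found only in 231Pa_Luc+OCT-2 cells held 260 members at 16.3 per Mb (14.4 to 18.4), and the 314 shared ones held 644 (71.2% of all) at 18.7 per Mb (17.3 to 20.2), with overlapping intervals. Within the shared ones, the 1.98 Mb not covered by the control's superenhancer held 19 members at 9.60 per Mb (5.78 to 15.0). The covered bases, 94.3% of their length, held 625 at 19.2 per Mb (17.8 to 20.8), with intervals that do not overlap at this setting. With the control extended by 5 kb the uncovered bases had 11.6 per Mb, for which no interval is given. In the opposite direction, 29 superenhancers found only in 231Pa_Luc+GFP cells covered 41 OCT-2 peaks of 231Pa_Luc+OCT-2 cells, which are not members, at 13.1 per Mb (9.40 to 17.8). All bases of the control's superenhancers outside those of the OCT-2 cells, 7.78 Mb with these 29 included, held 63 OCT-2 peaks at 8.10 per Mb (6.22 to 10.4). These densities say where peaks of the OCT-2 cells lie relative to both lists; whether H3K27ac differed at any peak was not analysed here, as the lists carry no signal.

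Member peaks were slightly wider than the rest. Median width was 275 bp for members (238 to 468 bp) and 265 bp for other peaks (238 to 509 bp), and 35.7% (32.6% to 39.0%) of members against 26.3% (25% to 27.5%) of other peaks were 300 bp or wider. The number of members in the superenhancer made little difference, with medians of 275 bp for lone members, 276 bp with 2 to 4 and 273.5 bp with 5 or more. By position relative to genes, 43.3% of members and 45.8% of other peaks lay in a gene body more than 1 kb from its ends, and 48.5% of members and 45.4% of others outside genes. Leaving out chromosome 8, 20.4% (17.7% to 23.3%) of members and 20.9% (19.7% to 22.1%) of other peaks were within 10 kb of a gene start, with medians of 44.3 and 50.2 kb.

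Members are also given by chromosome, without intervals, and chromosomes 16 and X had only 0.457 and 0.296 Mb of superenhancer. Chromosome 6 had 96 members at 28.8 per Mb of superenhancer, the highest density, followed by chromosome 12 at 22.7 and chromosome 8 at 21.9 per Mb. On chromosome 20, 31.3% of all OCT-2 peaks were members. Chromosome 16 had 1 member in 6 superenhancers, chromosome 7 had members in 5 of 11, and X had none in 2 although 76 OCT-2 peaks were called there.

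Superenhancers with a peak were wider, and held fewer genes per length, than those without. Median width was 92.4 kb in the 406 with a peak and 66.8 kb in the 112 without, and 63.3% (58.4% to 68.0%) of those with a peak and 50.9% (41.3% to 60.5%) of those without were shared with 231Pa_Luc+GFP cells, with overlapping intervals. Per superenhancer, both groups overlapped a median of 1 protein-coding gene. From the narrowest to the widest quartile the medians were 1, 1, 1 and 2 with a peak and 1, 2, 2 and 5 without. In summed values, given without intervals, superenhancers with a peak overlapped 1.94 protein-coding genes per 100 kb and those without 3.21. The order was the same in every width quartile: 2.76 against 3.36 in the narrowest, 2.19 against 3.05, 1.60 against 3.00, and 1.89 against 3.79 per 100 kb in the widest, where only 6 superenhancers had no peak. The nearest OCT-2 peak of a superenhancer without one lay a median of 132 kb away (range 2.26 to 3018 kb), within 10 kb in 3 cases, within 50 kb in 31 and within 200 kb in 75 of 112.

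The widest superenhancer without a peak was chr5:172731532-172985071 (253.5 kb), over ERGIC1, a secretory pathway protein, and DUSP1, a phosphatase of MAP kinases, 109 kb from the nearest peak. It was followed by chr1:1230497-1435564 around TAS1R3, a taste receptor (205 kb, 18 genes), and by CMIP, an adaptor protein, at chr16:81403543-81601009 (197 kb), with the nearest peak 3018 kb away. Next came a region of X with 15 genes, around PLXNA3, a semaphorin receptor, and with FLNA, the actin crosslinker filamin A (182 kb), and a region of chromosome 10 without a protein-coding gene (178 kb, 271 kb from LOC107983989). The regions around ADAMTSL4, an extracellular matrix protein, with MCL1, a BCL2-family survival factor (145 kb), and around DDIT4, an inhibitor of mTORC1 (121 kb), had none either. ZNF438, a zinc-finger gene (120 kb), MAP7D1, a microtubule-associated protein (117 kb), and a region of X 495 kb from DIPK2B (114 kb) completed the 10 widest. Of these 10, the regions of chromosome 10 at 178 and 120 kb and the MAP7D1 region were found only in 231Pa_Luc+OCT-2 cells.

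Genes were assigned to a superenhancer where the gene body extended by 10 kb overlapped it. By this rule 876 of 19974 protein-coding genes, 4.39%, lay at a superenhancer with a member, 275, or 1.38%, only at superenhancers without one, and 409, or 2.05%, had a member within 10 kb. Of 221 genes in 15 lists chosen for these cells, 55 (24.9%) were at a superenhancer with a member and 12 (5.43%) only at superenhancers without. The lists were chosen with earlier results of these data known, so their share above that of all genes describes the lists and is not independent evidence.

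YAP, TAZ and TEAD, the effectors of the Hippo pathway, and their targets had 8 of 16 genes at a superenhancer with a member, none only at one without, and 7 with a member within 10 kb. Among them were the coactivators YAP1 (5 members in 130 kb, 1 of them within 10 kb of the gene) and WWTR1, which encodes TAZ (1 in 105 kb, on its promoter). Others were the DNA-binding partner TEAD3 (1 in 74.0 kb) and the regulators AMOTL2 (2 in 68.0 kb) and AJUBA (1 in 296.9 kb, on its promoter). The targets CCN1, CRIM1 and AXL had 1 each. CCN1 alone had no member within 10 kb. The superenhancers of YAP1 and WWTR1 and that of CRIM1 with a member were found only in 231Pa_Luc+OCT-2 cells.

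AP-1 factors had 4 of 12 genes at a superenhancer with a member and 2 only at one without. FOSB, FOSL2, JUN and JUND, all AP-1 subunits, had 3, 2, 2 and 2 members in their superenhancers, and the FOSB promoter lay under 1 of them. Only FOSB and FOSL2 had a member within 10 kb. FOSL1 (105.9 kb) and MAFF (69.4 kb) had superenhancers without a member, both shared with 231Pa_Luc+GFP cells. Among NF-kB factors and inflammatory cytokines 8 of 22 were at a superenhancer with a member. The 8 were the inhibitor NFKBIA, NFKBIZ, BIRC3, the transcription factor IRF1 and the cytokines IL1A, IL1B, CXCL2 and LIF. Of these, NFKBIA and BIRC3 had a member within 10 kb, and the chemokine CXCL8 had a superenhancer (40.7 kb) without one. For TGF-beta and BMP signalling the count was 4 of 22. They were the receptor TGFBR2 (2 members), the signal transducer SMAD3 (2), the corepressor TGIF1 (1) and the target ID1 (2). Only TGFBR2 and TGIF1 had a member within 10 kb. SKI, an inhibitor, and LTBP2, a latency protein, had superenhancers without a member.

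Genes of the mesenchymal state and of the basal layer both contributed. VIM, the filament protein vimentin, had 1 member in 59.3 kb, the adhesion receptor CD44 had 3 in 104 kb and the integrin subunit ITGB1 3 in 73.5 kb. With the protease MMP14 (1) and S100A4 (2), this gave 5 of 18 mesenchymal genes. ITGB1 and MMP14 had no member within 10 kb. Hemidesmosome and basal genes gave 6 of 14, among them the integrin subunits ITGA6 (2) and ITGB4 (1) and the laminin subunit LAMB3 (1). EGFR, the EGF receptor (2 in 233 kb), and DST (5 in 171.8 kb) were others. Of the 6, ITGB4 alone had no member within 10 kb. The linker gene PLEC had a superenhancer without a member. The receptor kinase list had 6 of 18: the receptors EGFR, AXL and EPHA2, the ligand HBEGF and the inhibitors DUSP6 and SPRY4. HBEGF and DUSP6 had no member within 10 kb. DUSP4 had a superenhancer without a member.

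Among cell cycle, survival and oncogenic factors 6 of 16 were at a superenhancer with a member. CCND3 had 5 in its superenhancer and 3 within 10 kb, the factor ETS1 3 within 79.1 kb and the survival factor BCL2L1 2. RUNX1 had 2 with its promoter under 1, and KLF6 2, while RUNX2 lay under 2 superenhancers with 2 and 4. KLF6 alone of these had no member within 10 kb. Cytoskeleton and adhesion genes gave 5 of 17, all with a member within 10 kb. Among them were ACTN4, PXN and MICAL2 with 5 members in their superenhancers and the myosin gene MYH9 with 1. Within 10 kb of the gene lay 5 members for ACTN4, 1 for PXN and 3 for MICAL2. FLNA and the exchange factor ARHGEF2 had superenhancers without a member. The hypoxia list gave 4 of 13: HIF1A, the hypoxia-inducible factor (1), the peptide hormone ADM (3), the glycolytic enzyme HK2 (2) and the glucose transporter SLC2A1 (2). Only HK2 and SLC2A1 had a member within 10 kb. The lysyl oxidase LOXL2 was at a superenhancer without a member.

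Of 12 genes that OCT-2 is known to act on in B cells, 0 were at a superenhancer with or without a member, which for so short a list is near the shares of all protein-coding genes given above, 4.39% and 1.38%. Of 8 POU factors and coactivators, POU2F2 itself lay at a superenhancer (58.9 kb, shared with 231Pa_Luc+GFP cells), which held no member. The files hold positions alone, so the level of OCT-2 in the cells was not checked here. Leukocyte markers (0 of 10) and fibroblast and endothelial markers (0 of 12) were at no superenhancer, again in short lists, and of 13 luminal and epithelial markers KRT7 alone was at one, with 1 member.

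Positions of microRNA genes were also set against the members. Of 1558 RefSeq hairpins 99 lay in superenhancers, 68 of them in superenhancers with a member. Superenhancers with a member were 406 of 518 and 42.4 of 50.4 Mb, both larger shares than 68 of 99. Within 1 kb of a member lay 9 hairpins, 2 of these being overlapped by it. No such count for peaks outside superenhancers is given here. MIRLET7A2 on chromosome 11, which encodes a let-7 microRNA, lay under 1 of the 4 members of a 69.3 kb superenhancer. Its mature product, shown because a member covers its hairpin, is given from RefSeq with the seed (bases 2 to 8) in capitals.
hsa-let-7a-5p: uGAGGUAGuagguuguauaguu
MIR23A, MIR27A and MIR24-2, which form 1 cluster, lay 0.236, 0.378 and 0.536 kb from a member in a 48.0 kb superenhancer with 2 members. MIR21, a microRNA raised in many tumours, lay 3.35 kb from a member in the VMP1 superenhancer. MIR221 and MIR222 lay in the region of X near DIPK2B without a member, whose nearest OCT-2 peak was 189 kb away.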

How the data were processed

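Chromatin of MDA-MB-231 derivatives was precipitated with antibodies against OCT-2 or H3K27ac, per the labels' protocols. Tools named in the submitters' processing notes are Bowtie2 (version 2.2.2.6), HOMER, Bowtie and bedtools, and builds are hg19 and hg38; which tool made which list, the thresholds, the treatment of input and the joining of regions are not given in the sources used here. Lists as the authors deposited them hold positions (chromosome, start, end and a merge name) with no counts or signal, so depth is unknown. According to the names in the lists, each member merges 2 calls, 512 superenhancers merge 2 and 6 merge 3; libraries could not be taken apart, and no label says if the replicates were separate cultures. Lists in hg19 were not used here, and no coordinates were converted.

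From the 3 hg38 lists, overlaps, positions, spacing and densities were computed in Python 3.11.15 with numpy 2.4.6, pandas 2.3.3 and scipy 1.17.1, and figures with matplotlib 3.10.9. The overlap code was tested on simulated regions. Of 5741 peaks, 5 on unplaced contigs were left out. Shares have exact Clopper-Pearson and densities exact Poisson 95% intervals, for counting error only. No test was made, since lists without values per library allow none across samples. Gene positions, promoter windows and microRNAs came from RefSeq on GRCh38.p14, and the gene table holds 19974 protein-coding genes; all 221 listed genes were matched. The nearest gene of a region overlapping several is the one whose middle is closest. Genes named are those of the 12 superenhancers with most peaks, the 10 densest with 3 or more, the 10 widest without one, list members, and the first 10 promoters under a member; other regions with 5 or more peaks, close pairs and microRNAs were named after their values were seen. A few genes that this rule takes are not reported here. The members and gene lists were chosen with earlier results of these data known.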

Additional observations from a re-analysis of the deposited data

How the results depend on the processing

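Alternatives changed 1 choice at a time. The number of members was 901 where 50% of a peak or its centre had to lie inside, 878 with peaks within 1 kb joined and 713 in the widest superenhancers alone, as many as 231Pa_Luc+GFP cells have, of which 84.6% held a peak. The median spacing of neighbours was 23 kb in these widest ones, against 19.7 kb. Superenhancers with 4 or more peaks numbered 67 and with 6 or more 13, against 34 with 5 or more. Within 500 bp of a gene end lay 6.53% of members and 7.16% of other peaks, and within 5 kb 18.3% and 19.4%, against 8.30% and 8.84% within 1 kb. Protein-coding genes at superenhancers with a peak numbered 384 with the nearest gene alone, against 876. The other 19 alternatives kept their value within 1.5 times the count or within the counting interval, among them a central share of 46.4% to 50.0% of members. Also among them were 11.6 members per Mb in bases not covered by the control with the control extended by 5 kb. That density rests on 19 members in 1.63 Mb. No interval is given for it, so the lack of overlap with the covered bases is stated for the main setting only. No paired analysis was possible because the lists merge both libraries and carry no replicate numbers, and for the same reason no replicate could be left out. Depth is unknown, so an absent peak is a peak not called in these lists.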

Other observations

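Superenhancers no more than 150 kb apart, a distance chosen after the data were seen, formed 59 chains, and 392 superenhancers stood alone. The chain with most members was the PHLDA1 and BBS10 chain with 19. The chain of ITGB1 and NRP1 on chromosome 10 had 11 members in 3 superenhancers over 441 kb. The chain near MYC had 10 in 2 superenhancers over 404 kb. The chain of CEBPB, an inflammatory transcription factor, PTPN1, a tyrosine phosphatase, and PARD6B, a polarity protein, had 9 in 3 superenhancers over 599 kb. The BCAS1 region, with 8 members, was preceded by a superenhancer of ZNF217, a zinc-finger oncogene, with none. The chain of SH3TC2 and ABLIM3 also had 8 members. Chains with 7 members were those of PRKCH and HIF1A, of CDC42EP3, of CUBN and VIM, of MRPS10 and TRERF1, and of TEX48 and TNFSF8.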
